A study of Homo sapiens with 12 samples.

Results

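The eukaryotic translation initiation factor genes were followed in human alpha cells, which secrete glucagon in the pancreatic islet, made from the established embryonic stem cell line HUES-8. Cells had received 5 uM tunicamycin for 48 h or the DMSO vehicle for the same time, both in 30 mL bioreactors stirred at 40 rpm. RNA sequencing was done on 6 samples of each treatment, in 2 sequencing batches that each held 3 samples of each. All samples come from 1 stem cell line, so they carry 1 genetic background, and the labels call them biological replicates without saying whether they came from separate differentiations; p-values here speak of the spread among these samples only. The genes were chosen by name, as every symbol that starts with EIF and a digit between 1 and 6, leaving out the eIF2alpha kinases EIF2AK1, EIF2AK2, EIF2AK3 and EIF2AK4, the kinase's divergent transcript EIF2AK3-DT and the pseudogene EIF3IP1. The rule found 55 genes among 28278 symbols, of which 52 code for protein and 3 are non-coding neighbours (EIF3J-DT, EIF1B-AS1 and EIF1AX-AS1).

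Initiation factors bring the ribosome to the start codon of a messenger RNA. The eIF4F complex holds the cap, opens the 5′ end and recruits the small subunit, which arrives with eIF3, eIF1, eIF1A, eIF5 and the ternary complex of eIF2, GTP and initiator tRNA; eIF2B then exchanges GDP for GTP on eIF2 so that it can act again. Tunicamycin blocks N-linked glycosylation, so glycoproteins misfold in the endoplasmic reticulum (ER), and the ER kinase PERK (EIF2AK3) answers by phosphorylating the alpha subunit of eIF2, which turns eIF2 into an inhibitor of eIF2B and lowers initiation. This control acts on proteins, which RNA sequencing does not see; the values here are transcript levels. Alpha cells secrete a peptide hormone and carry a large load of ER folding.

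Library totals ran between 17523442 and 28872269 counts. Of the 16613 genes with enough counts to test, 781 rose and 568 fell with tunicamycin at an adjusted p below 0.05 in edgeR (quasi-likelihood test, fitted with the batch), which is 8.12% of genes (4.7% higher and 3.42% lower). Genes of ER folding rose in 15 of 15 cases, with a median log2 fold change of 2.26. The alpha cell markers summed to between 59800 and 95700 CPM (counts per 1000000 of the scaled library) in tunicamycin samples and between 80600 and 119000 CPM in DMSO samples, with 2 of 12 higher and 2 lower. Summed markers of ductal and acinar cells reached 166 to 346 CPM in tunicamycin samples and 412 to 610 CPM in DMSO samples, and 5 of 10 fell. Markers of liver and gut cells summed to 210 to 350 CPM in tunicamycin samples and 369 to 531 CPM in DMSO samples, and 5 of the 7 tested fell. Summed heart muscle markers spread between 32.2 and 1170 CPM in tunicamycin samples and between 34.2 and 2160 CPM in DMSO samples, with no call among 8 (1 at an unadjusted p below 0.05; 0 in DESeq2 and in limma-voom). Beta cell markers summed to 254 to 468 CPM in tunicamycin samples and 315 to 724 CPM in DMSO samples, and 3 of the 5 tested fell. Mesenchymal markers summed to 820 to 1440 CPM in tunicamycin samples and 737 to 2400 CPM in DMSO samples, and 0 of 10 were called in edgeR with batch (5 at an unadjusted p below 0.05, all lower; 1 lower in DESeq2, 0 in limma-voom), while 8 of 10 fell with the sample number as a block. Markers of delta, PP and epsilon cells summed to 1450 to 2920 CPM with tunicamycin and 994 to 5250 CPM with DMSO. None of the 5 was called in edgeR (2 lower at an unadjusted p below 0.05, 1 lower in DESeq2). Proliferation markers summed to 159 to 273 CPM with tunicamycin and 206 to 369 CPM with DMSO, with 0 of 8 called (1 lower in DESeq2). Pluripotency markers summed to 14.7 to 102 CPM with tunicamycin and 17.8 to 53.9 CPM with DMSO, with 0 of 3 tested called. No listed marker was at 0 in all samples. In these bulk samples fewer cells of a type and less RNA per cell cannot be told apart, and the part of cell makeup in the values below was not tested.

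Of the 55 initiation factor genes, 50 had enough counts to test. Tunicamycin raised EIF2A and EIF1 and lowered no member past the threshold, so 2 of 50 (4.0%) were called against 8.12% of all genes. At an unadjusted p below 0.05 there were 13 members, 8 higher and 5 lower. DESeq2 called 7 members, with EIF2A, EIF1, EIF5, EIF4EBP1 and EIF4G1 higher and EIF5B and EIF4E2 lower, against 12.9% of all genes (6.72% higher and 6.2% lower), and limma-voom called EIF2A and EIF1. The median log2 fold change over the tested members was 0.01, with 26 above and 24 below 0, and the values ran between -0.81 and 0.84. The median size of the change, without its sign, was 0.15 among members and 0.19 among all tested genes. No member changed by 2-fold or more, a size that 750 of all tested genes reached. Among genes with a mean of at least 10 CPM, 2 of 45 members (4.44%) and 9.82% of 10950 genes were called.

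The count of calls rose when the sample number was used as a block, which pairs a tunicamycin sample with the DMSO sample of the same number. EIF2A, EIF1, EIF4EBP1, EIF4G1 and EIF4B then passed as higher and EIF4E as lower, which is 12% of members against 17.8% of all genes (9.19% higher and 8.6% lower). Differences had 1 direction in 6 of 6 pairs in 14 members (28.0%), against 21.5% of all genes. The groups did not overlap in 1 member (2.0%), EIF2A, against 3.85% of all genes. The response of no member was called different between the batches: 0 of 16613 genes passed the edgeR test of the interaction of treatment and batch (157 at an unadjusted p below 0.05), and the lowest unadjusted p among members was 0.22.

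**Figure D1:**
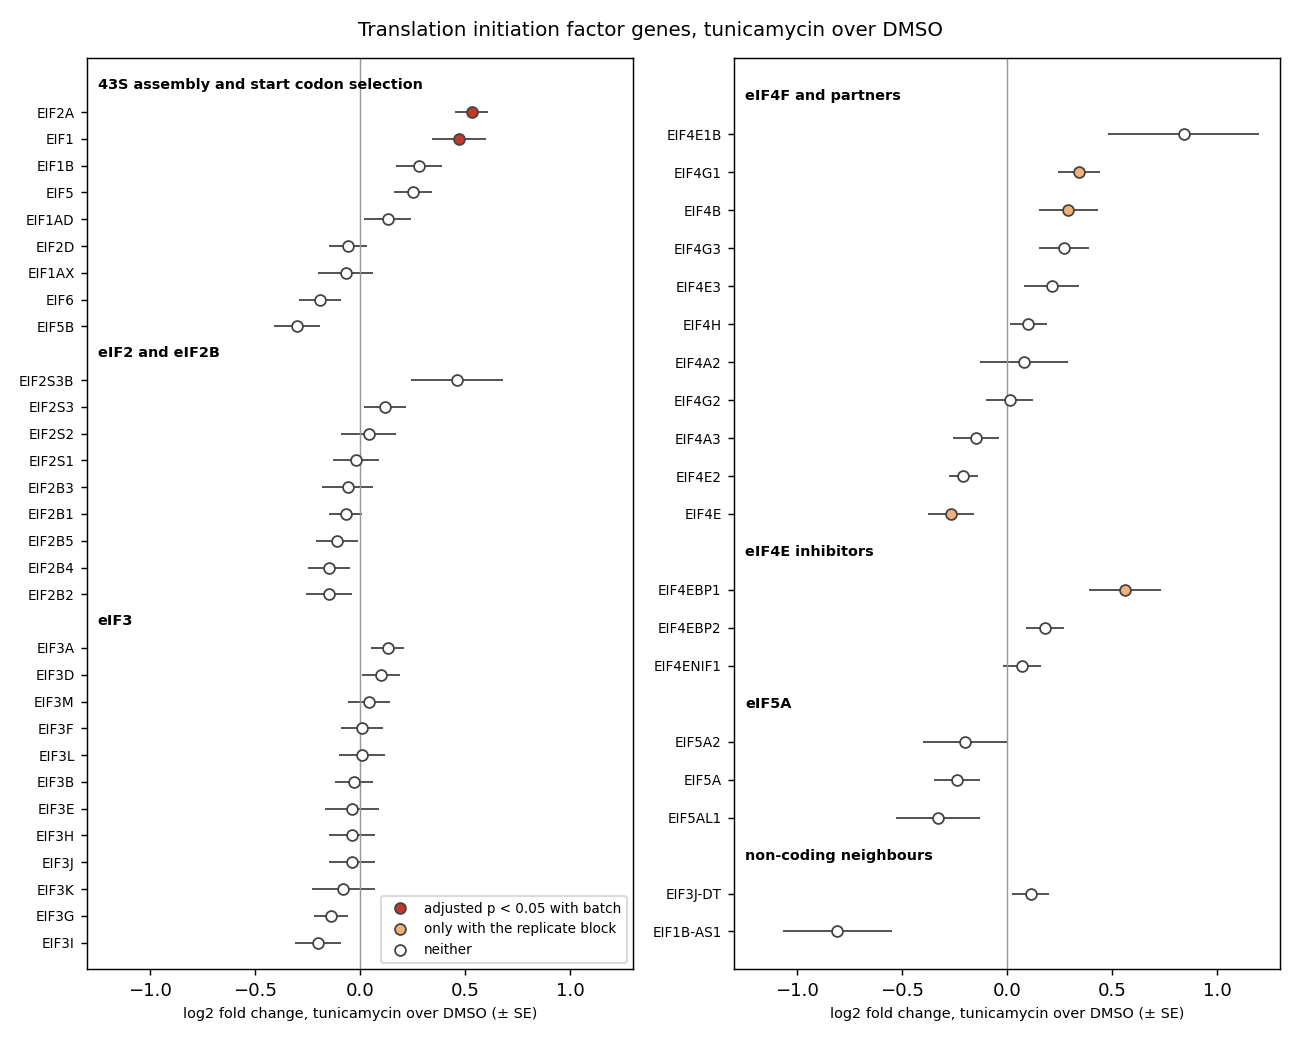
Log2 fold change, tunicamycin over DMSO, with its standard error for the tested initiation factor genes, grouped by role; EIF1AY is not drawn. Red points passed an adjusted p of 0.05 with batch as covariate (EIF2A and EIF1), orange points passed with the sample number as block instead (EIF4EBP1, EIF4G1, EIF4B and EIF4E), and the eIF3 points stay between -0.20 and 0.13.

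The group of small-subunit assembly and start codon selection held both called members. It also takes in EIF5B and EIF6, which act on the large subunit, and EIF1AD, which acts in small-subunit maturation. EIF2A, at chr3:150546678-150584242 on the plus strand (GRCh38, GENCODE 29), encodes an initiator tRNA-binding factor of unconventional initiation; despite its name it is not the alpha subunit of eIF2, which EIF2S1 encodes. In tunicamycin samples EIF2A had a lowest, median and highest level of 78.1, 82.5 and 90.9 CPM, and in DMSO samples 47.7, 59.7 and 64.4 CPM. Every tunicamycin sample lay above every DMSO sample. The means were 83.1 ± 5.04 CPM with tunicamycin and 57.7 ± 6.8 CPM with DMSO (SD, n = 6 each), a 1.44-fold rise (log2 fold change 0.53 ± 0.08 SE, edgeR adjusted p = 0.00094). The call held in 12 of 12 fits that left out 1 sample, with adjusted p between 0.00059 and 0.0044. The log2 fold change was 0.51 in batch 1 and 0.56 in batch 2, with an adjusted p of 0.27 in edgeR on batch 1 alone and 0.034 on batch 2 alone, where each group had 3 samples and 0.336% (batch 1) and 3.93% (batch 2) of all genes were called.

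EIF1, at chr17:41688885-41692668 on the plus strand, encodes the scanning factor that rejects poor start codons. Its lowest, median and highest levels were 403, 629 and 707 CPM in tunicamycin samples and 324, 423 and 562 CPM in DMSO samples. The groups overlapped, since 2 tunicamycin samples did not exceed the highest DMSO sample, but the tunicamycin sample was higher in 6 of 6 pairs. The means were 598 ± 116 CPM with tunicamycin and 433 ± 78.0 CPM with DMSO (SD, n = 6 each; log2 fold change 0.47 ± 0.13 SE, 1.38-fold, edgeR adjusted p = 0.046). The EIF1 call held in 3 of 12 fits without 1 sample (without tunicamycin sample 3, DMSO sample 2 or DMSO sample 5), and the adjusted p ran between 0.019 and 0.12 over those 12 fits. It was 0.0067 with the replicate block and 0.096 without the batch covariate. The log2 fold change was 0.51 in batch 1 and 0.44 in batch 2.

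The other 8 members of the same group were not called. EIF1B, a close paralog of EIF1, averaged 130 ± 21.4 CPM with tunicamycin and 107 ± 9.71 CPM with DMSO (log2 fold change 0.28 ± 0.11 SE, edgeR adjusted p = 0.17), and the groups overlapped. EIF5, whose protein triggers GTP hydrolysis on eIF2, had 275, 312 and 371 CPM (lowest, median, highest) in tunicamycin samples and 228, 261 and 300 CPM in DMSO samples, with a log2 fold change of 0.25 ± 0.09 SE (edgeR adjusted p = 0.11, DESeq2 0.042). For EIF5B, the GTPase that joins the large subunit, the levels were 134, 157 and 197 CPM in tunicamycin samples and 152, 194 and 276 CPM in DMSO samples. The log2 fold change of EIF5B was -0.30 ± 0.11 SE (edgeR adjusted p = 0.10, DESeq2 0.045), with the tunicamycin sample lower in 5 of 6 pairs. Exons of REV1 on the opposite strand cover 10.8% of the exon bases of EIF5B. EIF6, which keeps the large subunit from joining early, had a log2 fold change of -0.19. EIF2D, which can deliver tRNA and recycle ribosomes, was at -0.06, EIF1AX, the X-linked gene of the scanning factor eIF1A, at -0.07, and EIF1AD, an eIF1A-domain protein of small-subunit maturation, at 0.13. EIF1AY, the Y-linked copy of eIF1A, was tested and not called.

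**Figure D2:**
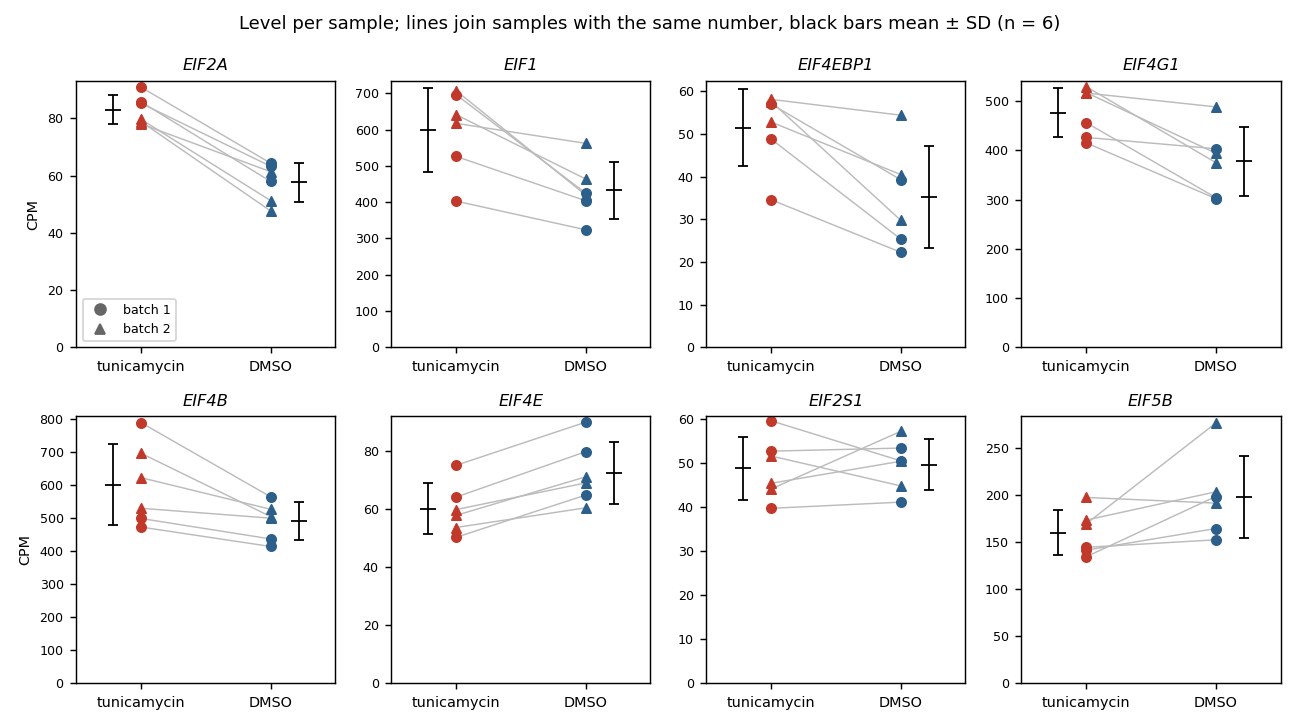
CPM in each sample of 8 initiation factor genes, tunicamycin left and DMSO right, with circles for batch 1, triangles for batch 2, grey lines between samples of the same number and black bars for mean ± SD (n = 6). EIF2A shows no overlap of the groups (78.1 CPM at the lowest tunicamycin sample, 64.4 CPM at the highest DMSO sample), EIF1, EIF4EBP1, EIF4G1 and EIF4B are higher and EIF4E is lower with tunicamycin in all 6 pairs, and EIF2S1 has no common direction.

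The promoter of EIF2A was read because the gene stood apart from the other members in its groups, and it carries the letters of the ER stress element. That element, CCAAT, 9 bases of any kind and CCACG, is bound by NF-Y and by ATF6, one of the sensors of the unfolded protein response. The bases are shown for the 250 bases before the RefSeq start of EIF2A on GRCh38.p14, plus strand, chr3:150546537-150546786, with the element's fixed letters in capitals:
EIF2A promoter: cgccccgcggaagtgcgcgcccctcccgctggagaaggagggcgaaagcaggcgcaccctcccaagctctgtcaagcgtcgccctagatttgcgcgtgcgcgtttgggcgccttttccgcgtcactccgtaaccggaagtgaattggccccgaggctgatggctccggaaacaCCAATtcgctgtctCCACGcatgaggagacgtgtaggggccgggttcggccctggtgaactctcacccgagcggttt
The element begins 77 bases before the RefSeq start. The gene's outermost GENCODE 29 start lies at position 150546678, ahead of the element, so by that annotation the letters lie inside the span of the gene.

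Both strands of 35116 RefSeq promoters (250 bases before to 50 after each start) were searched, and 27 (0.0769%) held the element. Of the 64 promoters of members, which covered 47 of the 55 genes, only that of EIF2A did. The 27 promoters belong to 25 genes, 17 of them tested, and 13 of the 17 rose (76.5%, against 4.7% of all tested genes) while 1 fell (SYNPO). Their median log2 fold change was 0.97. The fall of SYNPO (edgeR adjusted p = 0.046) was called in 2 of 12 fits without 1 sample. EIF2A prompted the search, and SERP1 holds the very same element; without both, 11 of 15 rose (73.3%) and 1 fell. The element was described on ER chaperone genes such as those below, so their rise is not independent evidence about it. HSPA5, HSP90B1, CRELD2, CALR, PDIA6 and CANX also stand in the ER folding list, where 15 of 15 rose. The share of risers was thus in part known beforehand. Whether the element acts in EIF2A was not tested. The windows of known chaperone genes are set beside that of EIF2A to compare the free middle bases, with the fixed letters in capitals:
EIF2A, chr3:150546710-150546728: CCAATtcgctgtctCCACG
HSPA5, chr9:125241391-125241409: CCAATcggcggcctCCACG
HSP90B1, chr12:103930216-103930234: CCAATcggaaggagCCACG
PDIA6, chr2:10812853-10812871: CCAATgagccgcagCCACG
CANX, chr5:179698778-179698796: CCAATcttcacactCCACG
HSPA5, the ER chaperone BiP, averaged 5270 ± 1020 CPM with tunicamycin and 845 ± 143 CPM with DMSO (6.19-fold, log2 fold change 2.63 ± 0.16 SE, edgeR adjusted p = 3.7e-07). The 1.44-fold change of EIF2A was the smallest among the 13 risen genes with the element. CANX, the lectin chaperone calnexin, rose 2.93-fold, XBP1, a transcription factor of the same response, 1.67-fold and ALG12, a mannosyltransferase of N-glycan assembly, 1.6-fold.

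The same element of EIF2A lies between that gene and SERP1, which encodes a small protein of the ER translocon and is read from the opposite strand. The RefSeq starts of the pair are 291 bases apart, and the element begins 232 bases before the SERP1 start on the other strand. SERP1 had 160, 213 and 225 CPM (lowest, median, highest) in tunicamycin samples and 84.2, 94.9 and 119 CPM in DMSO samples, with no overlap of the groups. Its log2 fold change was 1.08 ± 0.11 SE (edgeR adjusted p = 4.5e-05, called in 12 of 12 fits without 1 sample), larger than the 0.53 of EIF2A. Exons of SERP1 in GENCODE 29 cover 3.7% of the exon bases of EIF2A on the opposite strand, and 2.3% of the 50-base stretches of EIF2A occur in SERP1 or another gene. The sources used here do not say whether the counting used strand; without it, reads from the overlap cannot be assigned to either gene, and the part of this in the EIF2A value was not tested.

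Diverging neighbours were measured for the other members too. A tested gene started within 1000 bases in the opposite direction beside 12 members. SERP1 was the 1 called of these 12 neighbours, against 8.12% of all tested genes, and 1 call in 12 is near that share. The pairs EIF1B with EIF1B-AS1 and EIF3J with EIF3J-DT were counted from both sides, since these neighbours are members too. The log2 fold changes of the other 11 neighbours ran between -0.81 and 0.28. Among them, EIF1B and its antisense transcript EIF1B-AS1 start 9 bases apart and had log2 fold changes of 0.28 and -0.81, neither past the threshold.

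**Figure D3:**
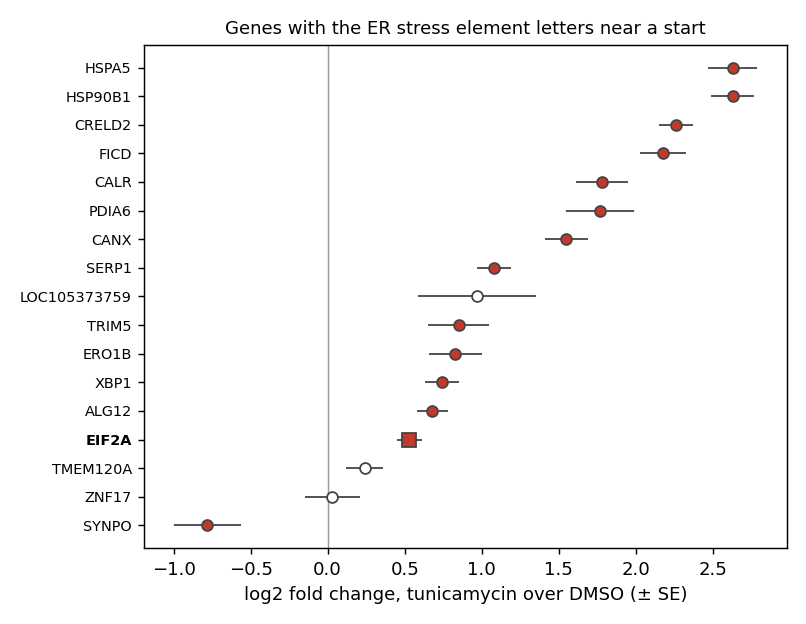
Log2 fold change, tunicamycin over DMSO, with its standard error, of the 17 tested genes that hold CCAAT, 9 bases and CCACG within 250 bases before or 50 after a RefSeq start. Filled points passed an adjusted p of 0.05 in edgeR. EIF2A (square, 0.53) is the 1 initiation factor gene and the smallest of the 13 that rose. SYNPO (-0.78) fell, a call that held in 2 of 12 fits without 1 sample.

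Other response motifs were searched in the same 64 promoters of members, on both strands. The ATF4-type element TGATGNAA was found in 1 (EIF4E3) and in 3.62% of all promoters. The XBP1-type element TGACGTG was found in 0 member promoters (1.97% of all), and the cyclic AMP element TGACGTCA likewise in 0 (1.85% of all). The E-box CACGTG was in 12 of the 64 member promoters, belonging to 12 members, and in 7.26% of all promoters. EIF1B and EIF1B-AS1, whose starts are 9 bases apart, both count among the 12. The 11 of these members that were tested had log2 fold changes between -0.81 (EIF1B-AS1) and 0.34 (EIF4G1), and none was called with batch as covariate. None of these matches, nor that of the ER stress element in EIF2A, shows a site in use.

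The eIF2 complex and its exchange factor eIF2B are where the stress kinases act, and none of their 9 genes was called in edgeR (0 at an unadjusted p below 0.05; 0 in DESeq2 and in limma-voom). EIF2S1, the alpha subunit that the kinases phosphorylate, had 39.7, 48.5 and 59.6 CPM (lowest, median, highest) in tunicamycin samples and 41.1, 50.4 and 57.2 CPM in DMSO samples. The groups covered nearly the same range, and the log2 fold change of -0.02 had a 95% interval of -0.25 to 0.20 (edgeR adjusted p = 0.94). EIF2S2, the beta subunit, averaged 135 ± 19.3 CPM with tunicamycin and 132 ± 34.9 CPM with DMSO (log2 fold change 0.04, 95% interval -0.22 to 0.30). EIF2S3, the GTP-binding gamma subunit, averaged 178 ± 16.9 CPM with tunicamycin and 164 ± 20.4 CPM with DMSO (log2 fold change 0.12, 95% interval -0.07 to 0.31), and was higher with tunicamycin in 6 of 6 pairs. EIF2S3B, a retrocopy of EIF2S3, stayed below 5 CPM, with a log2 fold change of 0.46 ± 0.22 SE (edgeR adjusted p = 0.23). Of its 50-base stretches 26.8% occur in EIF2S3, so this value is uncertain.

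The 5 subunits of eIF2B had log2 fold changes between -0.15 and -0.06, all below 0, and none was called. EIF2B5, the catalytic epsilon subunit, had 59.1, 71.9 and 80.0 CPM in tunicamycin samples and 68.3, 76.8 and 89.9 CPM in DMSO samples, which overlapped (log2 fold change -0.11, 95% interval -0.30 to 0.08, edgeR adjusted p = 0.56). EIF2B4, the regulatory delta subunit, was lower with tunicamycin in 6 of 6 pairs, with 47.6, 54.4 and 61.1 CPM in tunicamycin samples and 52.2, 57.4 and 70.3 CPM in DMSO samples (log2 fold change -0.15, edgeR adjusted p = 0.40). For both complexes the intervals do not reach a 2-fold change in either direction.

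Per kilobase of exon, the transcript levels of the subunits were unequal. EIF2S1 stood at 8.64 CPM per kb with tunicamycin and 8.77 with DMSO, below EIF2S3 (51.3 with tunicamycin, 47.2 with DMSO) and EIF2S2 (50.9 with tunicamycin, 49.6 with DMSO). The order of EIF2S2 and EIF2S3 differed between the groups by less than their spread. Of the 50-base stretches, 22.6% of EIF2S2 and 19.2% of EIF2S3 occur in other annotated genes, against 3.9% of EIF2S1. The levels of EIF2S2 and EIF2S3 are thus less certain. Within eIF2B the order was EIF2B1, EIF2B4, EIF2B5, EIF2B2 and EIF2B3 in both groups, from 13.1 down to 4.41 CPM per kb with tunicamycin and from 13.7 down to 4.62 with DMSO, a 2.97-fold range with tunicamycin and a 2.98-fold range with DMSO. The neighbours EIF2B4 (10.1 ± 0.823 with tunicamycin, 11.2 ± 1.34 with DMSO) and EIF2B5 (9.92 ± 0.955 with tunicamycin, 10.7 ± 1.13 with DMSO) did not differ beyond their spread. These lengths come from the union of annotated exons, which can be longer than the transcripts in the cells. Other annotated genes hold 21.4% of the 50-base stretches of EIF2B2 and 13.3% of those of EIF2B1, so their levels are less certain too.

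**Figure D4:**
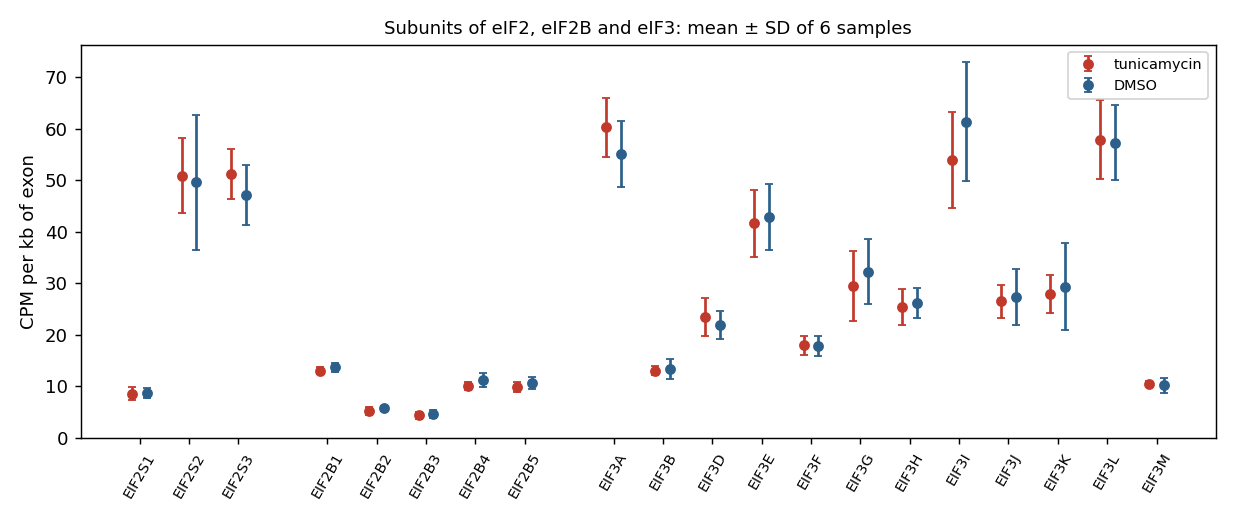
CPM per kilobase of exon for the subunits of eIF2, eIF2B and eIF3, mean ± SD of 6 samples, tunicamycin (red) left of DMSO (blue) for each gene. The levels differ between subunits (EIF2S1 at 8.64 with tunicamycin and 8.77 with DMSO, EIF2S3 at 51.3 with tunicamycin and 47.2 with DMSO), while for each subunit the bars of both groups overlap.

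The eIF3 complex, the largest initiation factor and the platform on the small subunit, had a median change of 0.04 on the log2 scale without its sign. None of its 12 tested subunits was called in edgeR (0 at an unadjusted p below 0.05; 0 in DESeq2 and in limma-voom), and the log2 fold changes lay between -0.20 (EIF3I) and 0.13 (EIF3A), with a median of -0.03. EIF3A, a core subunit and the most abundant one by CPM, had 383, 429 and 478 CPM in tunicamycin samples and 338, 380 and 448 CPM in DMSO samples, higher with tunicamycin in 6 of 6 pairs (log2 fold change 0.13, 95% interval -0.02 to 0.28, edgeR adjusted p = 0.36). EIF3E, another core subunit, had 193, 251 and 309 CPM in tunicamycin samples and 204, 264 and 303 CPM in DMSO samples, with no common direction over the pairs (log2 fold change -0.04, 95% interval -0.30 to 0.22). EIF3D, the subunit that can bind a cap by itself, had a log2 fold change of 0.10 and EIF3J, the loosely bound subunit, of -0.04. EIF3L, a core subunit at 0.01, shares 44.5% of its 50-base stretches with other annotated genes, so its level is uncertain. Per kilobase, among the 12 tested subunits, EIF3M was lowest in both groups, at 10.5 with tunicamycin and 10.2 with DMSO, and EIF3A with 60.3 (tunicamycin) or EIF3I with 61.4 (DMSO) was highest.

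The 12 genes of eIF4F and its partners held no call in edgeR among the 11 tested, with 5 at an unadjusted p below 0.05 and 2 calls in DESeq2, 0 in limma-voom. EIF4G1, the scaffold that links the cap-binding protein to eIF3, had 415, 486 and 529 CPM in tunicamycin samples and 302, 384 and 488 CPM in DMSO samples. Of the tunicamycin samples, 3 did not exceed the highest DMSO sample, but the tunicamycin sample was higher in 6 of 6 pairs. Its log2 fold change was 0.34 ± 0.10 SE (edgeR adjusted p = 0.059 with batch, 0.021 with the replicate block, 0.011 in DESeq2). EIF4G3, the paralog of the scaffold, also was higher in 6 of 6 pairs, with 167 ± 18.9 CPM with tunicamycin and 139 ± 26.6 CPM with DMSO (log2 fold change 0.27, edgeR adjusted p = 0.20). EIF4G2, which encodes DAP5, a scaffold without the eIF4E site, was the most abundant member, with 969, 1060 and 1190 CPM in tunicamycin samples and 925, 1030 and 1270 CPM in DMSO samples (log2 fold change 0.01, 95% interval -0.21 to 0.22).

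EIF4B, a cofactor of the helicase, had 473, 577 and 790 CPM in tunicamycin samples and 414, 503 and 565 CPM in DMSO samples, higher with tunicamycin in 6 of 6 pairs. Its log2 fold change was 0.29 ± 0.14 SE (edgeR adjusted p = 0.22 with batch, 0.041 with the replicate block), and 27.6% of its 50-base stretches occur in other annotated genes, mainly its pseudogenes. EIF4H, a further helicase cofactor, was at a log2 fold change of 0.10. EIF4A2, a helicase, had 549, 807 and 1350 CPM in tunicamycin samples and 629, 812 and 1140 CPM in DMSO samples, with a log2 fold change of 0.08 ± 0.21 SE (edgeR adjusted p = 0.87). The sample numbered 2 was the highest in both groups for EIF4A2. EIF4A3, the helicase of the exon junction complex, was at -0.15 ± 0.11 SE.

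EIF4E, the cap-binding protein, was lower with tunicamycin in 6 of 6 pairs. Its levels were 50.3, 58.9 and 75.2 CPM in tunicamycin samples and 60.5, 70.2 and 90.1 CPM in DMSO samples, and the groups overlapped. The log2 fold change was -0.27 ± 0.11 SE (edgeR adjusted p = 0.16 with batch, 0.017 with the replicate block). EIF4E2, which encodes the cap-binding repressor 4EHP, averaged 63.7 ± 6.36 CPM with tunicamycin and 73.5 ± 8.03 CPM with DMSO. It was likewise lower in 6 of 6 pairs (log2 fold change -0.21 ± 0.07 SE, edgeR adjusted p = 0.10, DESeq2 0.025). Of its 50-base stretches 22.5% occur in other annotated genes, and exons on the opposite strand cover 24.2% of its exon bases, so this value is uncertain. EIF4E3, a further cap-binding paralog, had a log2 fold change of 0.21 ± 0.13 SE, and EIF4E1B, known from germ cells, of 0.84 ± 0.36 SE at 1.67 ± 0.650 CPM with tunicamycin and 0.906 ± 0.352 CPM with DMSO; neither was called.

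The eIF4E-binding proteins sequester eIF4E until the kinase mTORC1 phosphorylates them. EIF4EBP1, which encodes 4E-BP1, had 34.6, 54.9 and 58.1 CPM in tunicamycin samples and 22.3, 34.5 and 54.4 CPM in DMSO samples. The groups overlapped, with 3 tunicamycin samples not above the highest DMSO sample, and all 6 pairs were higher with tunicamycin. The means were 51.5 ± 9.0 CPM with tunicamycin and 35.3 ± 11.9 CPM with DMSO (log2 fold change 0.56 ± 0.17 SE, edgeR adjusted p = 0.067 with batch, 0.0043 with the replicate block, DESeq2 0.026). The log2 fold change was 0.70 in batch 1 and 0.44 in batch 2. EIF4EBP2, the gene of 4E-BP2, averaged 153 ± 13.0 CPM with tunicamycin and 135 ± 12.5 CPM with DMSO, higher in 6 of 6 pairs (log2 fold change 0.18 ± 0.09 SE, edgeR adjusted p = 0.28, 0.10 with the block). EIF4ENIF1, whose protein carries eIF4E into the nucleus and represses bound messages, was at 0.07 ± 0.09 SE.

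The transcript ratio of EIF4EBP1 to EIF4E does not depend on library scaling. On the log2 scale of CPM per kb, its lowest, median and highest values were 3.09, 3.56 and 3.83 in tunicamycin samples and 1.89, 2.59 and 3.56 in DMSO samples. The ratio was higher with tunicamycin in 6 of 6 pairs, although the highest DMSO sample lay within the tunicamycin range. The means of 3.48 ± 0.29 with tunicamycin and 2.62 ± 0.59 with DMSO differed by 0.86. The difference was 1.02 in batch 1 and 0.70 in batch 2. The level of the ratio depends on the exon lengths, 1073 bases for EIF4EBP1 and 14067 bases for EIF4E, but its difference between groups does not. By CPM alone the mean of EIF4EBP1 was below that of EIF4E, at 51.5 against 60.2 with tunicamycin and 35.3 against 72.6 with DMSO. The ratio sets a gene that was higher in 6 of 6 pairs over one that was lower in 6 of 6, and it was chosen with earlier results of these data known, so it is given as a description with no p. It describes transcripts, not the proteins or their phosphorylation. The ratio of EIF4G1 to EIF4G3 differed by 0.07 on the log2 scale, less than the spread between samples, with means of 1.73 ± 0.25 with tunicamycin and 1.66 ± 0.45 with DMSO.

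**Figure D5:**
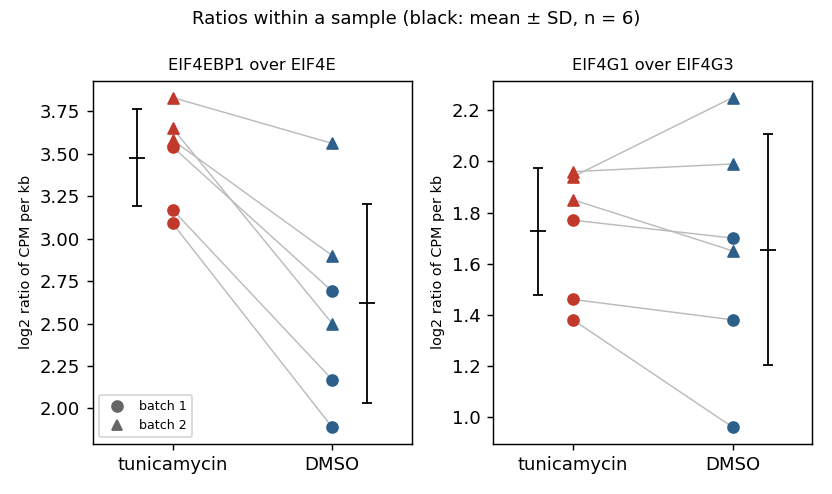
Log2 ratio of CPM per kb within each sample for EIF4EBP1 over EIF4E and for EIF4G1 over EIF4G3, tunicamycin left and DMSO right, with grey lines between samples of the same number and black bars for mean ± SD (n = 6). EIF4EBP1 over EIF4E is higher with tunicamycin in 6 of 6 pairs (means 3.48 with tunicamycin, 2.62 with DMSO), and EIF4G1 over EIF4G3 in 4 of 6 (means 1.73 with tunicamycin, 1.66 with DMSO).

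The eIF5A genes encode the hypusine-bearing factor that is now known mainly for elongation and termination, and none of the 3 was called in edgeR (1 at an unadjusted p below 0.05; 0 in DESeq2 and in limma-voom). EIF5A had 225, 281 and 312 CPM in tunicamycin samples and 246, 321 and 378 CPM in DMSO samples, lower with tunicamycin in 5 of 6 pairs (log2 fold change -0.24 ± 0.11 SE, edgeR adjusted p = 0.21). EIF5A2, its paralog, averaged 6.4 ± 1.76 CPM with tunicamycin and 7.29 ± 1.39 CPM with DMSO (log2 fold change -0.20). The retrocopy EIF5AL1 had a log2 fold change of -0.33 ± 0.20 SE. Other annotated genes hold 20.6% of the 50-base stretches of EIF5A and 17.7% of those of EIF5AL1, so both values are uncertain. Among the non-coding neighbours, EIF1B-AS1 was lower with tunicamycin in 6 of 6 pairs, at 0.855 ± 0.0856 CPM with tunicamycin and 1.52 ± 0.384 CPM with DMSO (log2 fold change -0.81 ± 0.26 SE, edgeR adjusted p = 0.07). EIF3J-DT was at 0.11 ± 0.09 SE.

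The remaining 5 members had too few counts to test. EIF4A1, the main helicase of eIF4F, was listed at 0 counts in all 12 samples; 48.6% of its exon bases overlap other annotated genes on the same strand, among them the readthrough locus SENP3-EIF4A1, which had between 0 and 11 counts. The sources used here do not say how reads shared by overlapping genes were counted, so the 0 is no measure of the gene's level. EIF3CL was also at 0 in all samples, and 97.2% of its 50-base stretches occur in EIF3C. EIF3C, a core eIF3 subunit, had 9, 2, 1, 3, 8 and 4 counts in tunicamycin samples 1 to 6 and 0, 0, 1, 0, 0 and 0 counts in DMSO samples 1 to 6, and 45.5% of its 50-base stretches occur in other genes. With no filter on low counts, EIF3C passed as higher with tunicamycin (edgeR adjusted p = 0.038, with 2.94% of all genes called higher), on counts this small and on reads that near-identical copies can share. EIF4EBP3 had between 0 and 26 counts and shares 71.8% of its 50-base stretches with ANKHD1-EIF4EBP3, and EIF1AX-AS1 had between 0 and 4 counts.

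Members were also grouped by the first bases at their RefSeq starts. A C followed by at least 4 pyrimidines at the RefSeq start, the form of the terminal oligopyrimidine tract that puts ribosomal protein messages under mTORC1 control, stood at 10 of the 64 member starts (15.6%), at 4.07% of all starts and at 54.3% of ribosomal protein starts. The members with it were EIF2A, EIF2D, EIF2S3, EIF2S3B, EIF3D, EIF3F, EIF3K, EIF3M, EIF4A2 and EIF4B. Their median log2 fold change was 0.09 (range -0.08 to 0.53, 1 of 10 called), against -0.04 (1 called of 33 tested) for members without it. Of 84 tested ribosomal protein genes, 0 were called in edgeR, with a median log2 fold change of -0.19 (5 at an unadjusted p below 0.05, all lower; 1 lower in DESeq2 and 0 in limma-voom).

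Several regulators around the initiation factors rose. Of 12 genes for the eIF2alpha kinases, their phosphatase and its helpers, 3 rose and 0 fell (5 rose with the replicate block). Of all tested genes, 4.7% rose (9.19% with the block). DNAJC3, the kinase inhibitor p58IPK, averaged 397 ± 48.9 CPM with tunicamycin and 105 ± 20.3 CPM with DMSO (3.79-fold, edgeR adjusted p = 7.1e-07). EIF2AK3, which encodes PERK, averaged 38.3 ± 7.57 CPM with tunicamycin and 17.7 ± 2.87 CPM with DMSO (2.13-fold, adjusted p = 0.00013), and PPP1R15A, the stress-induced phosphatase subunit GADD34, averaged 106 ± 16.2 CPM with tunicamycin and 59.5 ± 11.2 CPM with DMSO (1.78-fold, adjusted p = 0.00028). The median log2 fold change of these 12 genes was 0.05, against -0.01 for all tested genes.

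Downstream of eIF2, 22 of 26 listed targets of ATF4 and CHOP rose and 0 fell, with a median log2 fold change of 1.21. DDIT3, which encodes CHOP, averaged 115 ± 19.1 CPM with tunicamycin and 26.2 ± 3.68 CPM with DMSO (4.36-fold, edgeR adjusted p = 3.9e-07). Upstream of the eIF4E-binding proteins, 3 of 20 genes listed for the mTORC1 pathway rose and 0 fell (7 rose with the block). Of all tested genes, 4.7% rose and 3.42% fell (9.19% rose with the block). All 3 encode negative regulators of mTORC1: SESN2 (1.73-fold, adjusted p = 0.0063), DDIT4 (2.25-fold, adjusted p = 0.009) and DEPTOR (1.58-fold, adjusted p = 0.022). The negative regulators TSC1, TSC2 and AKT1S1 of the same list were not called in edgeR with batch. Among 38 protein partners of the initiation factors, 10 had an unadjusted p below 0.05 in edgeR, 1 higher and 9 lower. Past the threshold 1 rose and 1 fell, against 1 higher and 5 lower in DESeq2 and 2 higher and 3 lower with the replicate block. The riser was PAIP2B, an inhibitor of the poly(A)-binding protein (1.66-fold, adjusted p = 0.005), and the faller was CYFIP1, a WAVE complex subunit that can also bind eIF4E (log2 fold change -0.31, adjusted p = 0.04, called in 2 of 12 fits without 1 sample). Of 13 elongation and termination factors, 0 were called in edgeR (1 at an unadjusted p below 0.05; 0 in DESeq2 and in limma-voom). SESN2 and DDIT4 also stand in the list of ATF4 and CHOP targets, and DNAJC3 also in the ER folding list, so those genes are counted in both. These lists were drawn from textbook knowledge, and the targets of ATF4 and CHOP are lists known from ER stress, so their direction is not independent evidence.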

How the data were processed

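Raw gene counts were deposited by the authors as 1 table of 28278 symbols by 12 samples. Per the submitters' processing notes, reads were handled with cutadapt 4.4, HISAT2 2.1.0 and featureCounts 2.0.6 on GRCh38; per the labels' protocols, RNA came from the RNeasy Mini kit and libraries from the NEBNext Ultra II kit. For annotation release, strand setting and reads with several matches, the steps are not stated in the sources used here. Genes were kept by edgeR's filter on low counts (11665 were not tested), scaled by TMM and tested with edgeR 4.0.16 (quasi-likelihood, batch as covariate, Benjamini-Hochberg over all 16613 genes, threshold 0.05) in R 4.3.3; intervals are 95%. Library totals of 17523442 to 28872269 limit the precision of low genes, and intervals cover the spread between samples. The intervals were taken from the SE by a normal approximation, so they are somewhat narrower than the edgeR test would give. CPM are counts per 1000000 of the scaled library; CPM per kb divides by the exon union of GENCODE 29, matched by symbol. Promoters come from RefSeq on GRCh38.p14 and hold 250 bases before and 50 after each start; sharing of 50-base stretches was computed on GENCODE 29 transcripts. The code was tested on simulated counts.

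The sample number was tried as a block. After removing group and batch means, samples of the same number in both treatments correlated by 0.57, 0.69, 0.63, 0.11, 0.14 and 0.15 for numbers 1 to 6. A pairing by number is thus clear for numbers 1 to 3 and weak for 4 to 6. The samples numbered 4 and 5 correlated more with one of another number (0.31 and 0.26). With only group means removed, number 6 did so (0.12 against 0.3). The fit with batch was kept as the main one, and the block is given beside it. No pair of samples in a group agreed within counting noise (chi-square per gene 9.52 to 85.7). The other alternatives were DESeq2 1.42.0, limma-voom (limma 3.58.1), DESeq2 size factors, no filter and a stricter filter, no batch covariate, each batch alone and leaving out each sample. Genes were named if called, if among the 2 most abundant of their role, or if central to stress control (EIF2S1, EIF2B5, EIF4E, EIF4EBP1, EIF4EBP2, EIF5B), with up to 3 called genes of each pathway list; EIF4G1, EIF4B, EIF3C and further members were described after their values were seen. Permutation p-values planned for 2 transcript ratios are not given, since the genes were chosen with their changes known. The members, lists, ratios and motifs were chosen with earlier results of these data known.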

Additional observations from a re-analysis of the deposited data

How the results depend on the processing

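EIF2A kept its direction in every alternative run and its call in every one but batch 1 alone, where 0 members were called (2 at an unadjusted p below 0.05). The number of members called, 2 with edgeR and batch, was 7 in DESeq2, 1 without the batch covariate, 6 with the replicate block, 0 in batch 1 alone, 1 in batch 2 alone and between 1 and 4 when 1 sample was left out. The members added and lost are those named above with their values; with no filter EIF3C entered and EIF1 was lost. The count of all genes called, 1349, was 2096 in DESeq2, 2954 with the replicate block, 57 in batch 1, 654 in batch 2 and 792 to 1423 with 1 sample left out, lowest without tunicamycin sample 4. The genes called higher, 781, were 1526 with the block, 51 in batch 1, 449 in batch 2 and 517 to 854 with 1 sample left out. Those called lower, 568, were 1006 in DESeq2, 373 without the batch covariate, 1428 with the block, 6 in batch 1, 205 in batch 2 and 275 to 588 with 1 sample left out (275 without tunicamycin sample 4, 332 without tunicamycin sample 5, 348 without DMSO sample 5 and 371 without DMSO sample 1). Calls with the replicate block numbered 5 among the eIF2alpha kinases and phosphatase subunits, 5 among the partners (2 higher, 3 lower), 7 in the mTORC1 list, 1 among elongation factors and 1 among ribosomal protein genes. In batch 1 alone, 0 partners, 0 mTORC1 genes and 4 ATF4 and CHOP targets were called, and in batch 2 alone 1 partner. Among the named members the replicate block added EIF4EBP1, EIF4G1, EIF4B and EIF4E and changed no other call. No called value reversed. Of 420 recomputed values of 20 named genes, 391 stayed on their side of the threshold, 14 dropped below it and 15 passed it. The planned ratio of EIF4A1 to EIF4A2 was not run because EIF4A1 is listed at 0. Each batch alone has 3 samples a group, and the cause of the other changes was not tested.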
